A study of Homo sapiens with 10 samples.

Results

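The NRF2 antioxidant genes described here are 9 genes, the transcription factor NFE2L2 (the gene of NRF2) and 8 of its well-known targets: HMOX1, NQO1, TXNRD1, SRXN1, SLC7A11, GCLC, GCLM and OSGIN1. They were chosen by name, as the rows with these symbols among the 57773 Ensembl genes of the long RNA count tables, and each symbol stood on 1 row. The labels give the cells as BEAS-2B, an immortalised human bronchial epithelial line, grown in LHC9 medium with serum. The identity of the cells was not tested here. The TAF1C-labelled libraries (3 replicates) came from stable cells carrying a TAF1C vector, and the empty vector libraries, called eV libraries (2 replicates), from stable cells carrying the vector without it. Both vectors were described with the pCMV6 promoter, both kinds of cells were kept under G418 selection, and whether a line was 1 clone or a pool is not given. TAF1C belongs to the SL1 complex, which brings RNA polymerase I to ribosomal RNA genes, and the study asked which genes differ when it is overexpressed. Small RNA libraries of the same lines were not used here.

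NRF2 is normally held in the cytoplasm by KEAP1, an adaptor of a CUL3 ubiquitin ligase that sends it to the proteasome. When electrophiles or oxidants modify KEAP1, NRF2 accumulates, enters the nucleus and, paired with a small MAF protein, binds antioxidant response elements, from which BACH1 can displace it. Its targets make glutathione, recharge thioredoxin, reduce quinones, break down heme and store iron, which in airway epithelium is part of the defence against smoke and other inhaled oxidants.

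The letters of the antioxidant response element are shown because NRF2 targets are known for carrying that element. RefSeq promoter windows (GRCh38.p14) were searched for TGACNNNGC and TGAGNNNGC on both strands of the 250 bases before each start. Of the 9 genes, 7 had such a window, some with more than 1 start, and HMOX1 and SLC7A11 are named only. Of the 9 windows of these 7 genes 6 held a match, against 23.9% of 35116 windows of RefSeq genes. The windows of SRXN1 and GCLC and 1 of the 2 windows of NFE2L2 held none of these letters. Sequence outside these 250 bases was not searched, so a gene without a match may carry an element elsewhere. A gene with a match may also carry other elements, and binding of NRF2 to the matches was not tested. Each match below is printed with up to 10 bases on either side, 5′ to 3′ on the strand that carries it, the matching bases in capitals.
GCLM, chr1:93909446-93909474, plus strand, opposite to the gene: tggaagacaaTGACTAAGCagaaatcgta
TXNRD1, chr12:104215670-104215698, plus strand: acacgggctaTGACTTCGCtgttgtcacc
TXNRD1, second start, chr12:104286920-104286948, minus strand, opposite to the gene: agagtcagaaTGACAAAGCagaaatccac
TXNRD1, second start, chr12:104286824-104286852, plus strand: ggggcggctaTGAGCAGGCagaggatgtg
NQO1, chr16:69726661-69726689, plus strand, opposite to the gene: cggaggatgcTGAGGCTGCagctccagga
OSGIN1, chr16:83953131-83953159, minus strand, opposite to the gene: ttcataagcgTGAGTCAGCaggggcccgt
NFE2L2, chr2:177264259-177264287, minus strand: gtctggggacTGAGCCCGCtcgcgtgggc
NFE2L2, chr2:177264132-177264157, minus strand: gctggccgtcTGAGCCGGCgcggccc
The OSGIN1 match also holds TGAGTCA, the letters bound by AP-1 factors, and none of the other 7 matches holds TGAGTCA or TGACTCA. The genes with a match included 2 that rose in the comparison below (TXNRD1 and NQO1) and 3 that did not pass the test (GCLM, OSGIN1 and NFE2L2), and the genes without one included SRXN1, which rose, and GCLC, which fell.

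The TAF1C-labelled libraries held 34212883 to 37533366 gene counts and the eV libraries 22809601 and 28476151. Levels are given as CPM, the count of a gene scaled to a common library size after TMM normalization. Nothing in the labels states that replicates are independent cultures, and p-values here cover only library-to-library spread, which may be technical. TAF1C itself was at 64.0, 59.0 and 67.0 CPM in the TAF1C-labelled libraries and 64.4 and 77.7 CPM in the eV libraries, so the targeted transcript was not higher under its label (log2 fold change -0.17 ± 0.13 (SE), edgeR adjusted p = 0.353; adjusted p = 0.0316 for -0.38 when scaled by library totals, and 0.00133 for -0.36 without eV replicate 1), and the groups are named by their labels. Cell marker lists also differed between the groups. A list of 11 bronchial epithelial markers summed to 1387 to 1504 CPM in the TAF1C-labelled libraries and to 386 to 397 CPM in the eV libraries. KRT7 made up most of these sums, and without it they were 419.9 to 452 CPM in the TAF1C-labelled libraries and 139 and 174 CPM in the eV libraries. The members of this list did not move together: KRT7, KRT8, KRT18, LAMB3 and S100A2 rose, and EPCAM and ITGB4 fell. These were 5 and 2 of the 11 markers, of which KRT5 and TP63 were not tested. Over all tested genes, 15.9% rose and 22.6% fell (adjusted p under 0.05). The groups overlapped for KRT5, KRT19, CDH1 and TP63. A list of 15 photoreceptor and retina markers summed to 17.7 to 23.7 CPM in the TAF1C-labelled libraries and to 2196 and 2459 CPM in the eV libraries, with a count for every marker in every library. The photoreceptor factor OTX2 was at 0.0588 to 0.228 CPM in the TAF1C-labelled libraries and at 303 and 425 CPM in the eV libraries. The neuron list of 11 markers summed to 101 to 110.1 CPM in the TAF1C-labelled libraries and 399.9 and 180.5 CPM in eV replicates 1 and 2. Most of the TAF1C-labelled sum was MAP2, whose groups overlapped, and without it the sums were 8.03 to 8.28 CPM in the TAF1C-labelled libraries and 281 and 136 CPM in eV replicates 1 and 2. Some neuron markers were high in 1 eV library only, such as STMN2 with 987 counts in eV replicate 1 and 0 in replicate 2. So were some photoreceptor markers, such as RCVRN at 255 CPM in eV replicate 1 and 1.07 CPM in replicate 2. The marker differences between the groups lie along the same split as every result below, and their part in the results was not tested. In bulk RNA, fewer cells of a type and less RNA per cell cannot be told apart.

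Of the 9 genes, HMOX1, NQO1, SLC7A11, SRXN1 and TXNRD1 rose in the TAF1C-labelled libraries, between 2.04-fold and 7.49-fold, and GCLC fell. NFE2L2 itself, GCLM and OSGIN1 did not pass the test. Over all 18402 genes tested with edgeR's quasi-likelihood test, 15.9% rose and 22.6% fell (adjusted p under 0.05). The 9 genes had a median log2 fold change of 1.03 beside -0.10 over all tested genes, and of 0.59 beside 0.22 with quantile normalization. The groups did not overlap for 8 of the 9 genes, 6 higher and 2 lower, beside 64.2% of all tested genes (29.8% higher and 34.4% lower). The TAF1C-labelled libraries lay closer together than the eV libraries for 8 of the 9 genes, all but SLC7A11: the highest exceeded the lowest by 1.06-fold to 1.19-fold among the TAF1C-labelled libraries and by 1.07-fold to 2.41-fold between the eV libraries. The same held for 71.4% of all tested genes. For 8 of the 9, eV replicate 2 was the higher, with GCLC the exception, as it was for 48.9% of all tested genes.

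**Figure D1:**
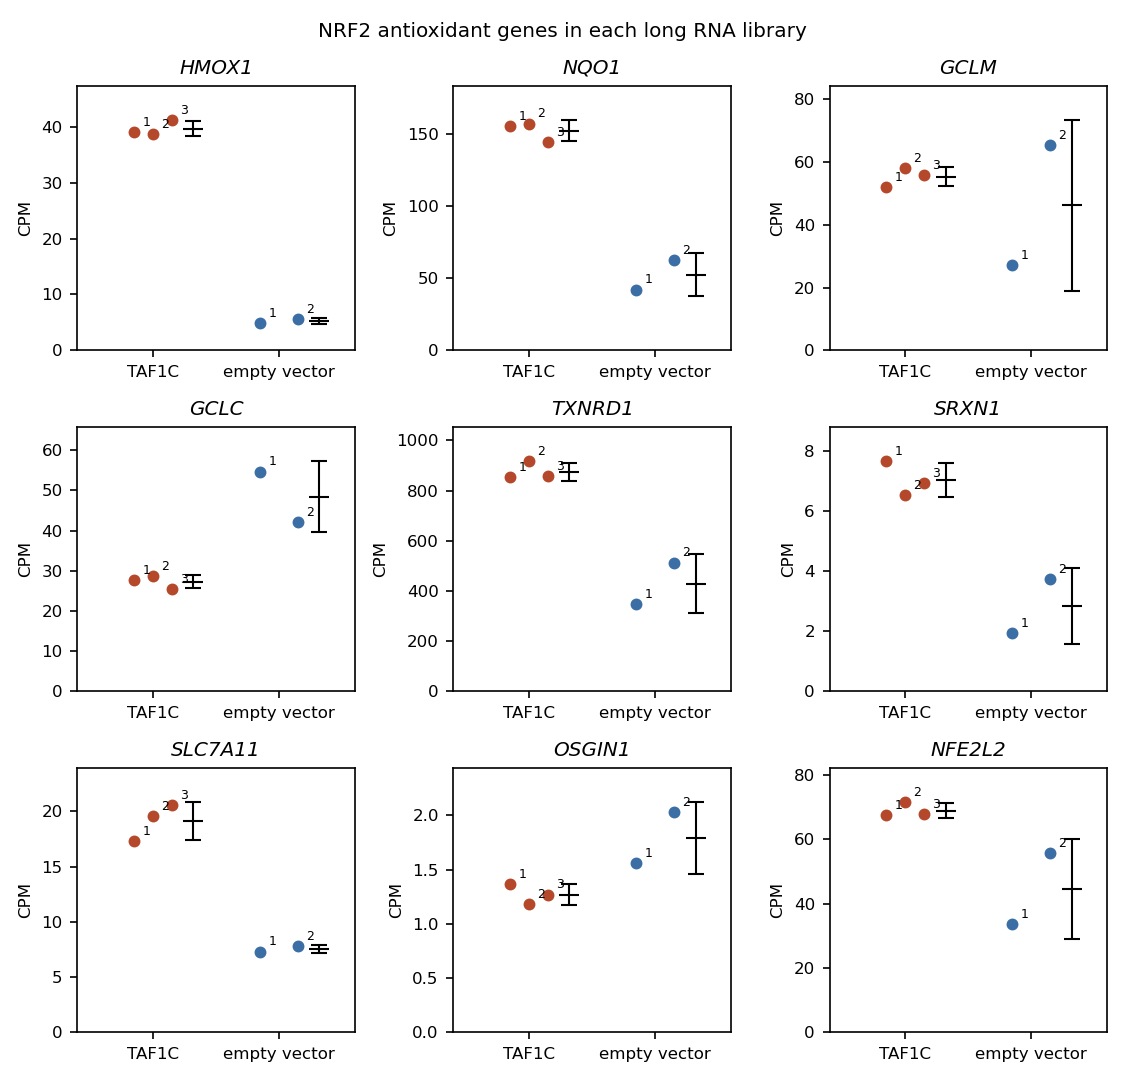
Level of each gene in CPM (linear axis from 0) in every long RNA library, TAF1C on the left and empty vector on the right; points are libraries with their replicate number, and the bar beside them is the mean with the SD (n = 3 and n = 2). HMOX1, NQO1, SLC7A11, SRXN1, TXNRD1 and NFE2L2 were higher in each TAF1C library than in either eV library, GCLC and OSGIN1 were lower, and for GCLM the eV libraries, at 27.1 and 65.4 CPM, lay on both sides of the TAF1C libraries.

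NFE2L2, the factor that gives the set its name, was at 67.5, 71.5 and 67.8 CPM in the TAF1C-labelled libraries, against 33.7 and 55.7 CPM in the eV libraries. All TAF1C-labelled libraries were above both eV libraries, but the distance to eV replicate 2 was small. The means were 69 ± 2.19 CPM (SD, n = 3) in the TAF1C-labelled libraries and 44.7 ± 15.6 CPM (SD, n = 2) in the eV libraries, a log2 fold change of 0.62 ± 0.22 (SE). It did not pass (edgeR adjusted p = 0.0719). With DESeq2 it passed (adjusted p = 0.0421, log2 fold change 0.68), as it did without eV replicate 1 (0.24, edgeR adjusted p = 0.0259) and without replicate 2 (1.0, edgeR adjusted p = 7.72e-10). With a single eV library left, the spread in these last fits comes from the TAF1C-labelled replicates.

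HMOX1, the inducible heme oxygenase that opens the heme ring and frees iron, changed most of the 9. It was at 39.0, 38.6 and 41.1 CPM in the TAF1C-labelled libraries, against 4.94 and 5.62 CPM in the eV libraries. Both groups were tight and far apart. The means were 39.6 ± 1.32 CPM (SD, n = 3) in the TAF1C-labelled libraries and 5.28 ± 0.476 CPM (SD, n = 2) in the eV libraries, 7.49-fold higher, with a log2 fold change of 2.90 ± 0.15 (SE) and an edgeR adjusted p = 0.000281. Only 0.212% of all tested genes had a fitted log2 fold change as high or higher. It passed in all 14 alternative fits, with log2 fold changes of 2.69 to 3.46. HMOX2, the constitutive heme oxygenase, was at 45.9, 45.9 and 48.5 CPM in the TAF1C-labelled libraries and at 27.8 and 52.1 CPM in the eV libraries, where its groups overlapped and it did not pass (edgeR adjusted p = 0.528).

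NQO1, which reduces quinones by 2 electrons and so avoids reactive semiquinones, was at 155, 157 and 144 CPM in the TAF1C-labelled libraries, against 42.0 and 62.7 CPM in the eV libraries. Every TAF1C-labelled library was more than double the higher eV library. NQO1 rose 2.90-fold (log2 fold change 1.53 ± 0.20 (SE), edgeR adjusted p = 0.00323), and it passed in all 14 alternative fits, between 1.21 and 1.82.

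The thioredoxin arm is represented by TXNRD1, the cytosolic reductase that recharges thioredoxin, and SRXN1, which repairs overoxidised peroxiredoxins. TXNRD1 was at 853, 916 and 858 CPM in the TAF1C-labelled libraries, against 347 and 513 CPM in the eV libraries. The groups were apart, with 1.48-fold between the eV libraries. TXNRD1 rose 2.04-fold (log2 fold change 1.03 ± 0.21 (SE), edgeR adjusted p = 0.0142). Its value was 0.59 with quantile normalization, where it still passed (limma adjusted p = 0.00374). SRXN1 was at 7.64, 6.53 and 6.93 CPM in the TAF1C-labelled libraries, against 1.93 and 3.73 CPM in the eV libraries. It rose 2.48-fold (log2 fold change 1.31 ± 0.36 (SE), edgeR adjusted p = 0.0344), the widest error among the genes that rose. SRXN1 rested on 222 to 268 counts in the TAF1C-labelled libraries and on 52 and 105 in the eV libraries. Its log2 fold change was 0.85 without eV replicate 1, 1.83 without replicate 2 and 2.10 with quantile normalization, and its call was lost without a filter (edgeR adjusted p = 0.0508) and with filterByExpr (0.0597). Leaving out any 1 TAF1C-labelled library ended the calls of TXNRD1 (edgeR adjusted p = 0.0649, 0.0721 and 0.0667 without replicate 1, 2 or 3) and of SRXN1 (0.122, 0.105 and 0.112), with log2 fold changes near those of the full fit.

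The glutathione arm did not move as 1 block. SLC7A11, the cystine carrier of the exchanger that imports the sulfur for glutathione, was at 17.3, 19.6 and 20.6 CPM in the TAF1C-labelled libraries, against 7.32 and 7.82 CPM in the eV libraries. Both groups were tight, and SLC7A11 rose 2.53-fold (log2 fold change 1.34 ± 0.18 (SE), edgeR adjusted p = 0.00388). GCLC, the catalytic subunit of glutamate-cysteine ligase, the enzyme of the rate-limiting step, went the other way. It was at 27.7, 28.6 and 25.5 CPM in the TAF1C-labelled libraries, against 54.7 and 42.2 CPM in the eV libraries. GCLC fell to 27.3 ± 1.59 CPM (SD, n = 3) in the TAF1C-labelled libraries, against 48.4 ± 8.80 CPM (SD, n = 2) in the eV libraries, a log2 fold change of -0.83 ± 0.15 (SE) with an edgeR adjusted p = 0.0104. Its direction held in all 14 alternative fits, between -1.07 and -0.70, but the call was lost when TAF1C replicate 1, 2 or 3 was left out (edgeR adjusted p = 0.0593, 0.0533 and 0.0637).

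GCLM, the modifier subunit that makes the ligase more efficient, was at 52.0, 58.2 and 55.8 CPM in the TAF1C-labelled libraries, against 27.1 and 65.4 CPM in the eV libraries. The TAF1C-labelled libraries lay between the eV libraries. Its log2 fold change of 0.26 ± 0.35 (SE) did not pass (edgeR adjusted p = 0.593), and its direction depended on which eV library was used: -0.31 without eV replicate 1 (edgeR adjusted p = 0.00604) and 1.0 without replicate 2 (edgeR adjusted p = 3.59e-09). The eV libraries differed 2.41-fold for GCLM, more than for any other of the 9 genes, and 17.2% of all tested genes differed as much between them on the log2 CPM scale.

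OSGIN1, an inhibitor of growth induced by oxidative stress, was the scarcest by count, at 40 to 48 counts in the TAF1C-labelled libraries and 42 and 57 in the eV libraries. It was at 1.37, 1.18 and 1.27 CPM in the TAF1C-labelled libraries, against 1.56 and 2.03 CPM in the eV libraries. All TAF1C-labelled libraries were below both eV libraries, but the log2 fold change of -0.50 ± 0.33 (SE) did not pass (edgeR adjusted p = 0.272), and it was 0.28 with quantile normalization (limma adjusted p = 0.608). In RefSeq, OSGIN1 overlaps NECAB2, a gene of neuronal calcium binding, which was at 0.684, 0.265 and 0.649 CPM in the TAF1C-labelled libraries and at 4.61 and 10.3 CPM in the eV libraries. The sources used here do not state whether the counting used strand or how shared reads were assigned, and the part of NECAB2 in the OSGIN1 counts was not tested. TXNRD1 likewise overlaps EID3, which was at 6.44 to 8.29 CPM in the TAF1C-labelled libraries and at 4.57 and 4.69 CPM in the eV libraries, far below TXNRD1. RefSeq also places antisense transcripts at NQO1, GCLC, TXNRD1 and SLC7A11. Their reads cannot be told apart from those of the named genes where strand was not used. It further places the noncoding RNA LOC107985423 at SRXN1, the pseudogene RPL18AP3 at TXNRD1 and the microRNA gene MIR3128 at NFE2L2. HMOX1 and GCLM overlap no other RefSeq gene.

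**Figure D2:**
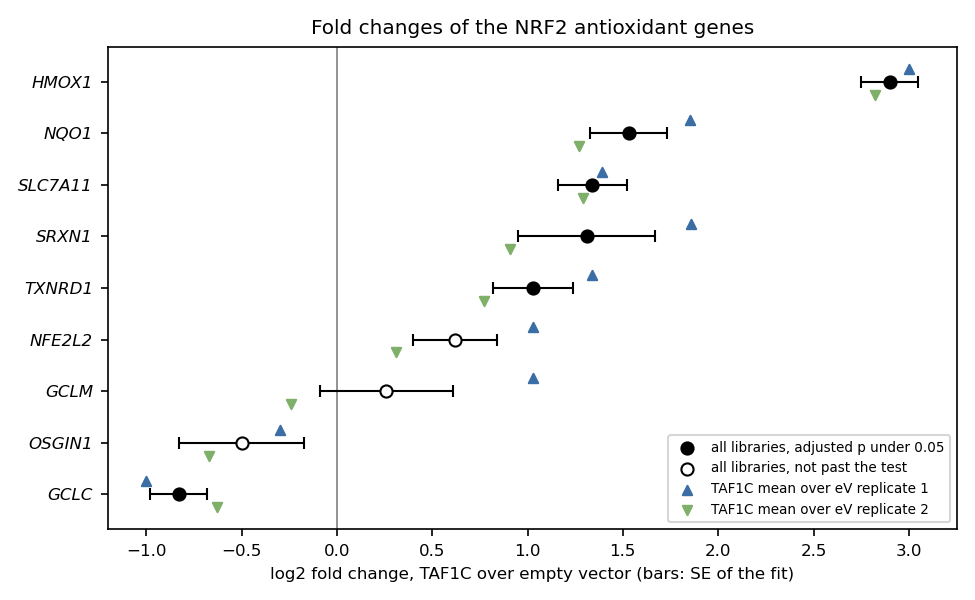
Log2 fold change of each gene, TAF1C over empty vector, on the horizontal axis. Circles are the edgeR fit over all libraries with its SE, filled where the adjusted p is under 0.05, and triangles set the TAF1C mean against eV replicate 1 (pointing up) or replicate 2 (pointing down) alone. HMOX1 lay at 3.0 and 2.82 and SLC7A11 at 1.39 and 1.29 against the separate eV libraries, whereas GCLM lay at 1.03 and -0.24.

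Ratios of partner genes within a library do not depend on the scaling between libraries, and 3 of them were compared. The GCLM to GCLC ratio of counts was 1.88, 2.03 and 2.19 in the TAF1C-labelled libraries, against 0.496 and 1.55 in the eV libraries. It was higher in every TAF1C-labelled library, and the group means differed by 1.21 on the log2 scale. The eV libraries were themselves far apart, with log2 ratios of -1.01 and 0.63. The log2 ratios of the TAF1C-labelled libraries were 0.91, 1.02 and 1.13. The NFE2L2 to KEAP1 ratio was 0.678, 0.785 and 0.753 in the TAF1C-labelled libraries, against 0.582 and 0.511 in the eV libraries, a log2 difference of 0.44 with no overlap. The ratio of SLC7A11 to SLC3A2, the heavy chain shared by the cystine exchanger and other transporters, was 0.0467, 0.0565 and 0.0570 in the TAF1C-labelled libraries, against 0.0489 and 0.0390 in the eV libraries, and the groups overlapped. In exact two-sided permutation tests these ratios gave p = 0.2 for GCLM to GCLC, p = 0.2 for NFE2L2 to KEAP1 and p = 0.4 for SLC7A11 to SLC3A2, or 0.3, 0.3 and 0.4 adjusted over the 3 ratios. The smallest p possible with 3 against 2 libraries is 0.2, so none could pass.

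**Figure D3:**
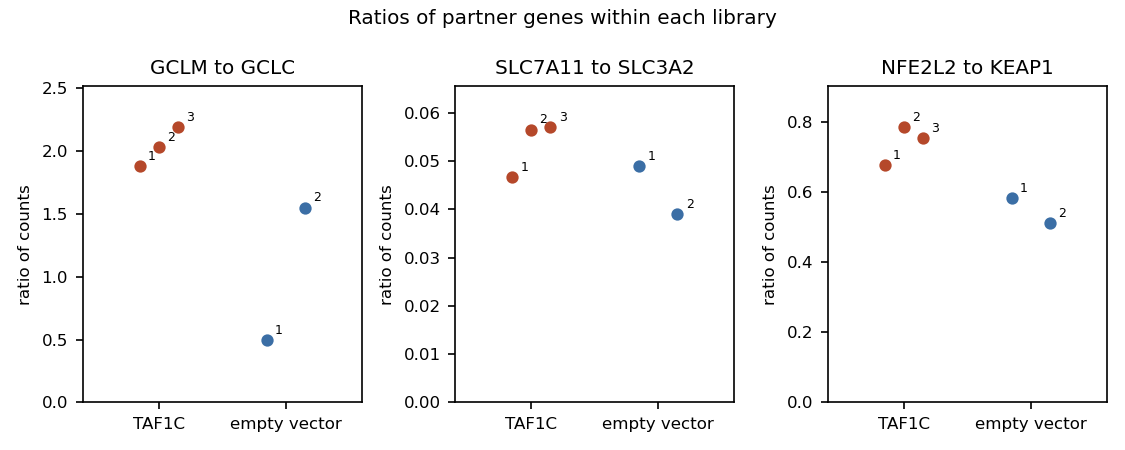
Ratio of the counts of a pair of genes in each library (vertical axis from 0), TAF1C on the left and empty vector on the right, with the replicate number beside each point. The GCLM to GCLC and NFE2L2 to KEAP1 ratios were higher in every TAF1C library, and the SLC7A11 to SLC3A2 ratio of TAF1C replicate 1 (0.0467) lay below that of eV replicate 1 (0.0489).

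Of 34 tested partners and regulators of NRF2, 10 rose (29.4%), 8 fell (23.5%) and 16 did not pass, beside 15.9% raised and 22.6% lowered of all tested genes, so the share that fell was near the background. Their median log2 fold change of 0.15 was -0.06 when scaled by library totals, 0.03 with quantile normalization, and -0.15 and 0.25 without eV replicate 1 or 2. KEAP1, the inhibitor of NRF2, was at 99.6, 91.0 and 90.1 CPM in the TAF1C-labelled libraries, against 57.9 and 109 CPM in the eV libraries. The groups overlapped, and it did not pass (log2 fold change 0.16, edgeR adjusted p = 0.654; -0.02 when scaled by library totals, and -0.29 and 0.66 without eV replicate 1 or 2, both past the test). BACH1, the repressor that competes for the same elements, was at 64.6, 63.0 and 60.7 CPM in the TAF1C-labelled libraries, against 108 CPM in each eV library. BACH1 fell (log2 fold change -0.78 ± 0.10 (SE), edgeR adjusted p = 0.00295; 0.0545 without a filter). Of the small MAF partners, MAFF rose, at 75.8, 67.1 and 69 CPM in the TAF1C-labelled libraries against 26.1 and 35.1 CPM in the eV libraries (log2 fold change 1.21 ± 0.17 (SE), edgeR adjusted p = 0.00410). The other 2, MAFG and MAFK, had overlapping groups and log2 fold changes of 0.11 and 0.15 that were below 0 when scaled by library totals and without eV replicate 1.

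SQSTM1, the autophagy receptor p62 that takes KEAP1 away from NRF2, rose to 300.4, 279.8 and 291 CPM in the TAF1C-labelled libraries, against 115 and 141 CPM in the eV libraries (log2 fold change 1.18 ± 0.14 (SE), edgeR adjusted p = 0.00258). TRIM25, a ubiquitin ligase, rose 2.46-fold (log2 fold change 1.30 ± 0.17 (SE), edgeR adjusted p = 0.00329). BTRC, the beta-TrCP adaptor of a KEAP1-independent route of NRF2 breakdown, fell to 29.9, 31.3 and 27.0 CPM in the TAF1C-labelled libraries, against 68.7 and 55.2 CPM in the eV libraries (log2 fold change -1.08 ± 0.14 (SE), edgeR adjusted p = 0.00382). FBXW11, the other beta-TrCP gene of this list, rose (log2 fold change 0.51 ± 0.13 (SE), edgeR adjusted p = 0.0294). It was at 129.8, 149 and 132 CPM in the TAF1C-labelled libraries and at 88.3 and 104 CPM in the eV libraries. CREBBP, EP300 and CHD6, also of this list, fell (edgeR adjusted p = 0.0271, 0.0032 and 0.00945). CDKN1A, the p21 cell cycle inhibitor that can also bind NRF2, was at 31.2, 28.6 and 28.9 CPM in the TAF1C-labelled libraries and at 52.9 and 123 CPM in the eV libraries; it fell (edgeR adjusted p = 0.0162), a call lost without TAF1C replicate 1, 2 or 3 (0.0620, 0.0804 and 0.0679). BACH2, a lymphoid relative of BACH1, was at 5.99, 6.18 and 6.56 CPM in the TAF1C-labelled libraries and at 35.0 and 8.32 CPM in the eV libraries. BACH2 passed narrowly (edgeR adjusted p = 0.0498) and lost the call under other settings, relative log expression scaling among them (0.0513).

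Among 51 further NRF2 targets, 44 were tested, of which 14 rose (31.8%), 2 fell (4.55%) and 28 did not pass. Over all tested genes, 15.9% rose and 22.6% fell. The list had a median log2 fold change of 0.36 (0.18 with library totals, 0.60 with quantile normalization and 0.72 without eV replicate 2). The 3 with the highest fold were 2 export pumps and a transferase. ABCC3, which exports glucuronide and glutathione conjugates, was at 97.1, 98.4 and 99.8 CPM in the TAF1C-labelled libraries, against 19.1 and 17.3 CPM in the eV libraries, and ABCC4, which exports organic anions and cyclic nucleotides, was at 806, 858 and 782 CPM in the TAF1C-labelled libraries, against 194 and 248 CPM in the eV libraries. ABCC3 rose 5.41-fold (edgeR adjusted p = 0.000232) and ABCC4 3.69-fold (edgeR adjusted p = 0.00124), each without overlap. MGST1, a membrane glutathione transferase, rose 3.76-fold, to 64.8, 75.6 and 65.4 CPM in the TAF1C-labelled libraries against 14.4 and 22.1 CPM in the eV libraries (edgeR adjusted p = 0.00235). The fallers were the glycine transporter SLC6A9 (2.97, 2.12 and 2.84 CPM in the TAF1C-labelled libraries, 7.62 and 8.18 CPM in the eV libraries, edgeR adjusted p = 0.00810; limma adjusted p = 0.119 with quantile normalization) and the iron exporter SLC40A1. The 7 members of this list that were not tested were under 1 CPM in all libraries or in all but 1, AKR1B10 and GSTA1 among them. Members of the AKR1C, GSTM and TRIM16 families and the ferritins share sequence with near copies, so their counts are uncertain.

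In the glutathione system, 11 of 38 tested genes rose (28.9%) and 3 fell (7.89%), beside 15.9% and 22.6% of all tested genes. It shares 9 genes with the preceding list. Its median log2 fold change was 0.42 (0.22 with library totals, 0.64 with quantile normalization, and 0.30 and 0.75 without eV replicate 1 or 2). ANPEP, an ectopeptidase that acts on products of glutathione breakdown, was at 174, 158 and 169 CPM in the TAF1C-labelled libraries, against 38.0 and 36.5 CPM in the eV libraries, 4.49-fold higher (edgeR adjusted p = 0.000284). GSTK1, a transferase of mitochondria and peroxisomes, rose 2.35-fold (edgeR adjusted p = 0.00174). GGT7, a relative of gamma-glutamyl transferase, fell to 8.87, 8.62 and 10.4 CPM in the TAF1C-labelled libraries, against 35.5 and 31.7 CPM in the eV libraries (edgeR adjusted p = 0.00103). GSTT1, a transferase whose gene is missing from many human genomes, had 0, 2 and 0 counts in the TAF1C-labelled libraries and 226 and 324 counts in the eV libraries, and it also fell (edgeR adjusted p = 0.00118). GSTM2, another transferase, was at 0.285, 0.529 and 1.64 CPM in the TAF1C-labelled libraries and at 13.7 and 2.24 CPM in the eV libraries, and its call (edgeR adjusted p = 0.0455) was lost without any 1 of the TAF1C-labelled libraries (0.126, 0.164 and 0.0559 without replicate 1, 2 or 3).

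Of 24 tested genes of the thioredoxin and peroxiredoxin system, 7 rose (29.2%) and 5 fell (20.8%), beside 15.9% and 22.6% of all tested genes, with a median log2 fold change of 0.33. That median was 0.07 without eV replicate 1, 0.73 without replicate 2 and 0.15 with library totals. TXN, the thioredoxin that TXNRD1 reduces, was at 530.2, 583 and 535 CPM in the TAF1C-labelled libraries, against 165 and 248 CPM in the eV libraries, 2.66-fold higher (edgeR adjusted p = 0.00536). TXNRD2, the mitochondrial reductase, was at 70.2, 64.0 and 68.4 CPM in the TAF1C-labelled libraries, against 27.0 and 20.5 CPM in the eV libraries, 2.84-fold higher (edgeR adjusted p = 0.00176). TXNRD3, the reductase known from testis, was at 3.59, 1.94 and 3.03 CPM in the TAF1C-labelled libraries and at 7.10 and 12.2 CPM in the eV libraries, and its fall (edgeR adjusted p = 0.0174) was lost without TAF1C replicate 1, 2 or 3 (0.0517, 0.0692 and 0.0727). SESN3, a sestrin, fell to 1.23, 1.03 and 1.11 CPM in the TAF1C-labelled libraries, against 38.6 and 70.7 CPM in the eV libraries (log2 fold change -5.60 ± 0.31 (SE), edgeR adjusted p = 0.000327).

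Among 15 tested superoxide and peroxide enzymes, 5 rose (33.3%) and 0 fell, with 10 not past the edgeR test, where 1 was lower at an unadjusted p under 0.05, 1 fell with DESeq2 and 4 fell without eV replicate 2. Of all tested genes, 15.9% rose and 22.6% fell. The median of the 15 was 0.19 on the log2 scale, -0.10 when scaled by library totals and 0.76 with quantile normalization, and 0.48 and -0.12 without eV replicate 1 or 2. SOD2, the mitochondrial superoxide dismutase, was at 351, 368 and 346 CPM in the TAF1C-labelled libraries, against 133 and 156 CPM in the eV libraries, 2.45-fold higher (edgeR adjusted p = 0.00171). CYBA, a subunit of NADPH oxidases, rose 2.39-fold (edgeR adjusted p = 0.00190).

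SLC7A11 and HMOX1 are known to answer to other pathways as well, so genes of the ATF4 amino acid response and of heme and iron handling were counted beside them. Of 22 ATF4 response genes, 6 rose (27.3%) and 2 fell (9.09%), beside 15.9% and 22.6% of all tested genes. Their median log2 fold change of 0.10 was -0.09 when scaled by library totals, 0.39 with quantile normalization, and -0.22 and 0.76 without eV replicate 1 or 2. ATF4 was at 348, 352 and 347 CPM in the TAF1C-labelled libraries and at 157 and 335 CPM in the eV libraries, and it did not pass (edgeR adjusted p = 0.250). CEBPB, a factor of stress and inflammation, was at 281, 234 and 272 CPM in the TAF1C-labelled libraries, against 37.3 and 43.8 CPM in the eV libraries, 6.47-fold higher (edgeR adjusted p = 0.000358). TRIB3, a pseudokinase that feeds back on ATF4, rose 2.41-fold (edgeR adjusted p = 0.00259), and SLC7A5, a carrier of large neutral amino acids, 2.25-fold (edgeR adjusted p = 0.00978). The response genes DDIT3 and ASNS were not among those past the test (edgeR adjusted p = 0.0726 and 0.846). DDIT4 and SLC3A2 of the same list rose 2.17-fold and 2.05-fold (edgeR adjusted p = 0.00375 and 0.00648).

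Of 21 tested genes of heme and iron handling, 8 rose (38.1%) and 3 fell (14.3%), beside 15.9% and 22.6% of all tested genes. Their median log2 fold change was 0.43 (0.23 with library totals, and 0.24 and 0.73 without eV replicate 1 or 2). This list shares 4 genes with the further NRF2 targets, namely FTL, FTH1, BLVRB and SLC40A1, which are counted in both. The ferritin chains rose together: FTL was at 1115, 1064 and 1155 CPM in the TAF1C-labelled libraries, against 348 and 462 CPM in the eV libraries, 2.75-fold higher (edgeR adjusted p = 0.00341), and FTH1 was 2.49-fold higher (edgeR adjusted p = 0.00176). ACO1, which as an iron-free protein controls ferritin and transferrin receptor mRNAs, rose 2.25-fold (edgeR adjusted p = 0.00134). The exporters fell. FLVCR1, a carrier that has been linked to the export of heme, was at 20.6, 18.6 and 16.5 CPM in the TAF1C-labelled libraries, against 51.7 and 65.2 CPM in the eV libraries (edgeR adjusted p = 0.00146). SLC40A1, ferroportin, was at 0.285, 0.412 and 0.618 CPM in the TAF1C-labelled libraries and at 30.4 and 2.99 CPM in the eV libraries (edgeR adjusted p = 0.0115; 0.0563 and 0.0693 without TAF1C replicate 1 or 2, and limma adjusted p = 0.0908 with quantile normalization).

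**Figure D4:**
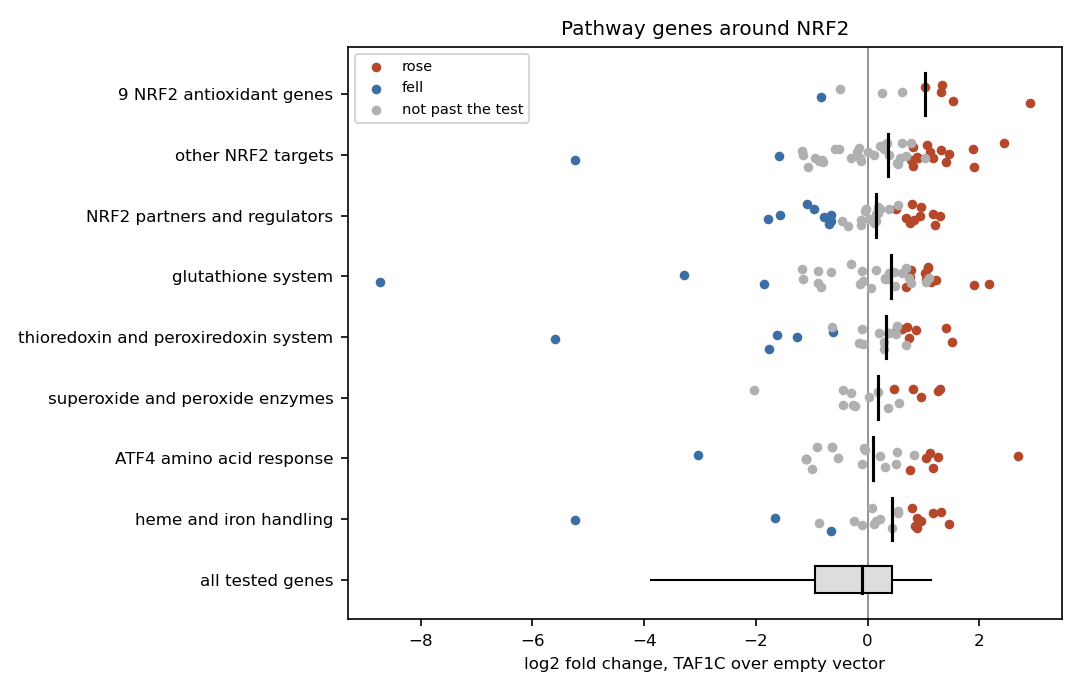
Log2 fold change (horizontal axis, TAF1C over empty vector) of each tested gene in the pathway lists, 1 row per list, with the list's median as a black line; the bottom row is all 18402 tested genes, with the box from the lower to the upper quartile and the line from the 5th to the 95th percentile. The medians ran from 0.10 to 0.43 in the further lists and stood at 1.03 for the 9 NRF2 antioxidant genes and -0.10 for all genes. The lowest point is GSTT1, whose fitted value depends on the counts near 0 in the TAF1C-labelled libraries.

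The number of list genes past the test moved with the libraries used, as it did over all genes. Without 1 TAF1C-labelled library, HMOX1, NQO1 and SLC7A11 were the 3 of the 9 NRF2 antioxidant genes that rose each time, and GCLC no longer passed, while 5.84% to 6.48% of all tested genes rose. Fits without 1 eV library take their spread from the TAF1C-labelled replicates alone, and for them the median log2 fold changes are given. For the further NRF2 targets, 8 or 9 rose without 1 TAF1C-labelled library. Their median log2 fold change was 0.42 and 0.72 without eV replicate 1 or 2. The scaling moved the median of all tested genes, which was -0.33 with library totals and 0.22 with quantile normalization. The counts for the 9 genes stayed at 5 raised and 1 lowered under each of the 3 other scalings, while their median log2 fold change was 0.83 with library totals and 0.59 with quantile normalization. It was 0.71 without eV replicate 1 and 1.30 without replicate 2.

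**Figure D5:**
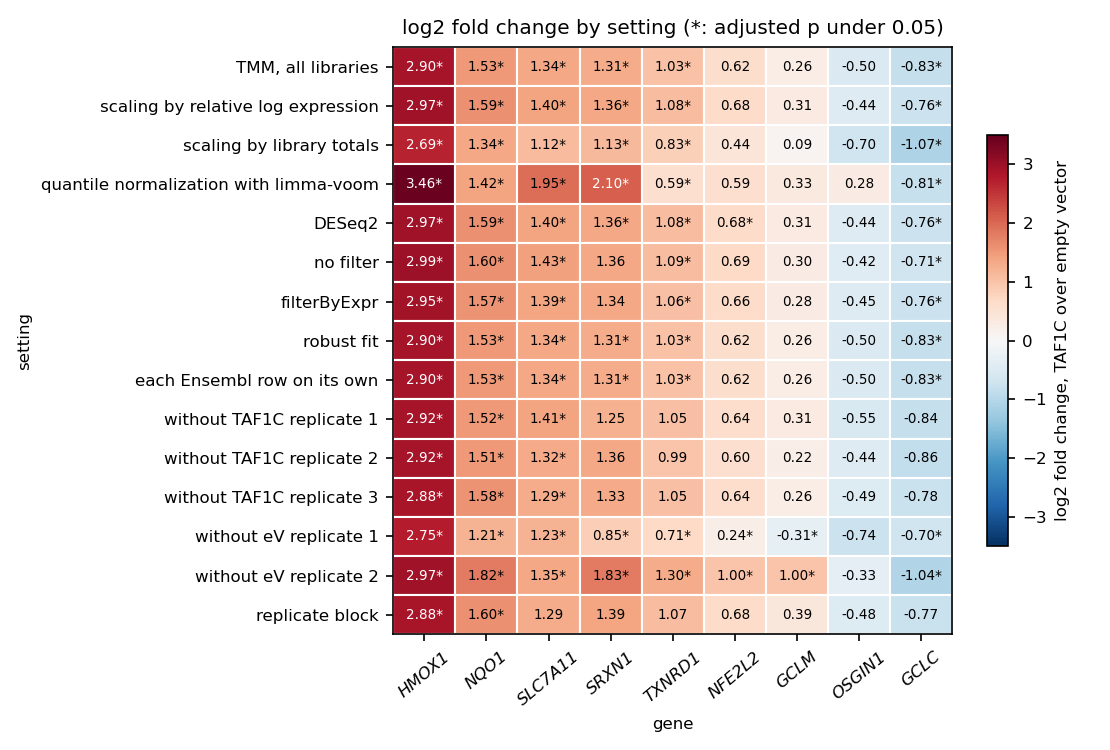
Log2 fold change, TAF1C over empty vector, of the 9 genes (columns) in the TMM fit over all libraries and in each of the 14 alternative fits (rows), with colour from blue (lower) to red (higher) and an asterisk where the adjusted p is under 0.05. HMOX1 and NQO1 carry an asterisk in every row, and GCLM has 1.0 without eV replicate 2 and -0.31 without replicate 1.

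To describe which genes had a pattern like that of NFE2L2, log2 CPM profiles over the 5 libraries were centred on each gene's mean and compared by Euclidean distance. Among the nearest of the tested genes were SNX17, an endosomal sorting protein (distance 0.0307), and the ribosomal pseudogene RPL7P9 (0.0339), whose reads cannot be told from those of its parent gene with certainty. SNX17 was at 103, 108 and 102 CPM in the TAF1C-labelled libraries and at 50.2 and 83.2 CPM in the eV libraries, with a step between the eV libraries close to that of NFE2L2. Of the other 8 genes, TXNRD1 was nearest to NFE2L2 (distance 0.436, with 13% of tested genes as near or nearer), then GCLM (0.494), and HMOX1 was farthest (2.47, with 79.8% as near or nearer). The closest pair among the 9 was NQO1 with SRXN1 (0.377).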

How the data were processed

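Long RNA had been sequenced from 3 TAF1C-labelled libraries and 2 empty vector libraries of cells labelled BEAS-2B. Per the labels' protocols, the mirVana kit gave the RNA, and NEBNext Ultra libraries followed depletion of ribosomal RNA. The authors deposited raw counts per Ensembl gene, whole numbers with 1 column per library. Per the submitters' processing notes, the tools were HISAT2, Bowtie2 2.2.4, Cufflinks 2.2.1, Trimmomatic 0.36 and DESeq2 on hg19, with no role or order stated. The gene annotation, the strand setting and the treatment of reads that match several genes are not given in the sources used here.

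Rows sharing a symbol (236 symbols) were summed, and the counts were tested with edgeR 4.0.16 (R 4.3.3), quasi-likelihood, TMM scaling and no covariate, on the 18402 genes that reached 1 CPM in 2 or more libraries. P were adjusted by Benjamini-Hochberg over all tested genes, two-sided, at 0.05, and SE is the log2 fold change divided by the square root of F. Levels and SD are of CPM. Alternatives were other scalings, DESeq2 1.42.0, limma-voom (limma 3.58.1) with quantile normalization, other filters, a robust fit, single Ensembl rows, each library left out, and a replicate block. The 9 genes and all lists were chosen with earlier results of these data known, so list counts are descriptions, and no set test was run. The further NRF2 targets share 9 genes with the glutathione list, 4 with heme and iron, 3 with thioredoxin and 2 with regulators. The ATF4 list shares 2 with glutathione and 1 with thioredoxin, and the regulators share 1 with the superoxide enzymes. Shared genes are counted in each list. In the lists, SELENOP, SELENOT and SELENOW stand in the tables under older symbols, and PECAM1, an endothelial marker, was not analysed here.

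Genes named besides the 9 were TAF1C, KEAP1, BACH1, MAFF, MAFG and MAFK, the 3 nearest profiles to NFE2L2, the most abundant marker of a list, and up to 3 rises and 3 falls per list among genes past the test without overlap and a higher group mean of 5 CPM or more. The text prints part of these, and 1 of the nearest profiles is not reported here. HMOX2, ATF4, DDIT3, ASNS, NECAB2, EID3, OTX2, AKR1B10, GSTA1, STMN2, RCVRN and the epithelial markers besides KRT7 were chosen after seeing their values. So were FBXW11, CREBBP, EP300, CHD6, DDIT4, BLVRB and the fold change of SLC3A2. The marker lists of fibroblast, haematopoietic, endothelial and differentiated airway cells summed to 8.77 to 49.6 CPM in the TAF1C-labelled libraries and 10.3 to 96.9 CPM in the empty vector libraries.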

Additional observations from a re-analysis of the deposited data

How the results depend on the processing

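HMOX1 and NQO1 passed in all 14 alternative fits, and SLC7A11 in 13. Over all genes, the numbers raised and lowered ran from 1058 to 5967 and from 1960 to 5665 with 1 library left out; those of the 9 genes from 3 to 7 and from 0 to 2. With 1 library left out, the further NRF2 targets ran from 8 to 25 raised and 1 to 12 lowered, the partners and regulators from 4 to 17 and 3 to 15, the glutathione system from 6 to 23 and 2 to 9, the thioredoxin system from 3 to 15 and 3 to 9, the superoxide enzymes from 2 to 7 and 0 to 4, the ATF4 genes from 5 to 16 and 0 to 10, and heme and iron from 6 to 14 and 1 to 7. These fits take the spread from fewer libraries, and with 1 empty vector library that library is assumed to vary like the others.

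With quantile normalization, 2731 genes fell over all, with 1 further target, 3 thioredoxin genes, 0 ATF4 genes and 1 heme and iron gene lowered. Library totals gave 5 further targets, 4 ATF4 genes and 5 heme and iron genes lowered, and relative log expression 1 ATF4 gene. DESeq2 lowered 1 superoxide enzyme. Without a filter, 1817 genes rose over all, with 6 regulators raised and 4 lowered, 3 thioredoxin genes and 3 superoxide enzymes raised, and 1 superoxide enzyme and 1 ATF4 gene lowered. With filterByExpr, 5 regulators, 4 thioredoxin genes and 3 superoxide enzymes rose and 1 ATF4 gene fell. Direction turned with library totals for KEAP1 (-0.02), MAFG (-0.07), MAFK (-0.05) and the medians of the regulators (-0.06), superoxide enzymes (-0.10) and ATF4 genes (-0.09), and with quantile normalization for OSGIN1 (0.28). With an eV library left out, GCLM was at -0.31 without replicate 1 and 1.0 without replicate 2, KEAP1 at -0.29 and 0.66, MAFG at -0.32 and 0.57, and MAFK at -0.21 and 0.47. The medians were -0.15 and 0.25 for the regulators, 0.48 and -0.12 for the superoxide enzymes and -0.22 and 0.76 for the ATF4 genes. The cause was not tested.

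The replicate numbers 1 and 2 recur in both groups, but nothing in the labels pairs the libraries. Deviations of same-numbered libraries correlated at 0.0427 and 0.135 across genes. TAF1C replicate 3, which has no eV library of its number, correlated at 0.103 with eV replicate 1. With 2 eV libraries their deviations mirror each other, so these values cannot decide on pairing. With the replicate block, on the 4 libraries numbered 1 and 2, 1233 genes rose and 2521 fell; HMOX1 and NQO1 alone of the 9 genes passed (2 raised, 0 lowered). The block gave 8 raised and 1 lowered further targets, 5 and 3 regulators, 3 and 2 thioredoxin genes, 3 raised superoxide enzymes and 1 lowered ATF4 gene. OSGIN1 at 40 to 57 counts and SRXN1 at 52 to 268 counts per library are limited by depth.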
